A study of Mus musculus with 11 samples.

Results

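The large subunit of the cytosolic ribosome was followed through its protein genes, defined as protein-coding genes whose symbol starts with Rpl or Rplp and then a digit. Of the 54838 genes counted in each library, 57 met this rule. They were 46 canonical members, 6 paralogs (Rpl10l, Rpl22l1, Rpl36al, Rpl39l, Rpl3l and Rpl7l1) and 5 genes with a pseudogene name (Rpl10-ps3, Rpl36-ps4, Rpl36a-ps1, Rpl9-ps1 and Rpl9-ps6).

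RNA was sequenced from mouse embryonic stem cells (ESCs) of the E14 line, grown on gelatin with LIF, a cytokine that keeps ESCs undifferentiated. The cells had been transfected for 36 h with a scrambled control siRNA (3 libraries), with CMTR1 siRNA 1 (4 libraries) or with CMTR1 siRNA 2 (4 libraries), and otherwise shared 1 genotype and medium. CMTR1 is the cap methyltransferase that methylates the ribose of the first transcribed nucleotide of an mRNA. The comparisons address how transcript levels of these genes differed when CMTR1 was targeted, and both siRNAs were compared with the same control libraries. The study's methods call its sequencing replicates biological, and the labels do not say how the libraries of a group were separated, so p-values measure the spread between these libraries. All cells were of 1 line and the treatment was transient.

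A ribosome is made of a small and a large subunit, and the large subunit holds the catalytic centre that joins amino acids, the tunnel through which the new protein leaves, and a flexible stalk that recruits elongation factors. Most of its proteins are needed in equal numbers. Most of the mRNAs for its proteins start with a run of pyrimidines, the TOP (terminal oligopyrimidine) motif, through which mTOR and LARP1 adjust their translation. Mammalian genomes also hold many processed pseudogenes of these genes, and a few working paralogs that are best known from testis, muscle or lymphocytes.

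Libraries held 6738478 to 8382318 reads in genes. Cmtr1 itself, given as CPM, its read count scaled to a common library total of reads in genes, was at 21.3, 21.7 and 17.9 in the control libraries, at 21.1, 21.3, 16.2 and 18.0 with siRNA 1 and at 15.6, 16.8, 16.4 and 19.5 with siRNA 2. Its log2 fold change was −0.088 (SE 0.11, adjusted p = 0.743) with siRNA 1 and −0.25 (SE 0.11, adjusted p = 0.144) with siRNA 2, and both siRNA groups overlapped control. For siRNA 2 the 95% interval was −0.46 to −0.031 (edgeR's quasi-likelihood test, unadjusted p = 0.0257), below 0 for this gene taken alone, and the call did not hold over all genes tested. The groups are named here by their labels. All 8 ESC markers were detected in each group, with a summed level of 1676 to 1762 CPM in control, 1373 to 1576 with siRNA 1 and 1500 to 1581 with siRNA 2. In bulk RNA, a lower level can come from fewer cells of a type or from less RNA per cell, and these cannot be told apart.

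To show what the start sites look like, windows of 30 bases around the RefSeq start are printed. They cover members that the results turn on and that have a window. These are the stalk scaffold Rplp0, Rpl13a and Rpl18, which were called lower, and Rpl11 of the 5S RNA particle. The paralogs Rpl10l and Rpl7l1, which were called higher with siRNA 2 than with siRNA 1, complete the set. Each window holds 10 bases before the start and 20 from it on, and capitals mark its longest run of C and T.
Rplp0: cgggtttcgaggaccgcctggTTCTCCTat
Rpl13a: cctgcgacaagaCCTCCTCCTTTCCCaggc
Rpl18: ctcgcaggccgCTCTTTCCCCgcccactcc
Rpl11: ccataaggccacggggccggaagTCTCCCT
Rpl10l: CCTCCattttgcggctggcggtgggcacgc
Rpl7l1: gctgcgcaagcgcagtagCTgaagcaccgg
In build GRCm38.p6 these are chr5:115559457-115559486 on the plus strand for Rplp0, chr7:45128726-45128755 on the minus strand for Rpl13a and chr7:45718061-45718090 on the plus strand for Rpl18. Rpl11 is at chr4:136053374-136053403, Rpl10l at chr12:66284382-66284411 and Rpl7l1 at chr17:46782637-46782666, all on the minus strand. The run was 7 bases long in Rplp0 and Rpl11, 14 in Rpl13a, 10 in Rpl18, 5 in Rpl10l and 2 in Rpl7l1. Counting the start as base 1, it began at base 12 in Rplp0, 14 in Rpl11, 3 in Rpl13a and 2 in Rpl18. Run length did not separate the members by their change. Among other members called lower, it was 4 in Rpl10a, 5 in Rpl36a and 3 in Rpl37a, but 20 in Rpl27a and 10 in Rplp2. In the paralogs Rpl22l1, Rpl39l, Rpl36al and Rpl3l it was 10, 7, 5 and 5. Of the 52 canonical members and paralogs, 40 had a RefSeq promoter. Of the 34 canonical members among them, 12 started within 5 bases of the mRNA start in the gene annotation, so a window need not begin at the base that these cells use.

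Over the 34 canonical members with a window, 17 (50%) held a run of at least 7 pyrimidines on the sense strand, against 17.9% of the 32851 mouse promoters in the same table. The letters CTTTCC were found on the sense strand of 6 canonical windows (17.6%, against 1.29% of all). A start on C was found in 9 (26.5%, against 16.3%). In the 300 bases from 250 before to 50 after the start, the ETS-type motif CCGGAAG was present on either strand in 13 canonical promoters (38.2%, against 8.86%), AAGATGGC on either strand in 2 (5.88%, against 2.75%) and TATAAA on the sense strand in 3 (8.82%, against 8.32%). CTTTCC consists of pyrimidines, so this motif and the pyrimidine run overlap.

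Transcripts of the canonical members were slightly lower with either CMTR1 siRNA, and nearly all of them moved the same way. A gene was tested if it had more than 1 CPM in at least 4 libraries (16073 genes) and was called at an adjusted p of at most 0.05 by edgeR's quasi-likelihood test. All 46 canonical members were tested. With siRNA 1, 44 of 46 were below 0 on the log2 scale (43.2% of all genes tested) and 2 were called lower, Rplp0 and Rpl13a (4.35%, against 1.97% of all genes tested). With siRNA 2, 45 of 46 were below 0 (42.9% of all genes) and 12 were called lower (26.1%, against 3.55% of all genes). None was called higher in any of the 4 comparisons by this test or DESeq2, or by exactTest where it was run, and none had an unadjusted p under 0.05 in that direction. Over all genes, 2.71% were called higher with siRNA 1, 6.17% with siRNA 2 and 4.19% for the mean of both siRNAs.

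The shifts were small. The median log2 fold change of the 46 was −0.064 with siRNA 1 and −0.089 with siRNA 2, beside medians of 0.024 and 0.029 over all genes tested. On the linear scale the median change was −4.37% and −5.96%, while the median standard error of 1 member was 0.044 on the log2 scale. The members were measured in the same libraries, so the 46 are not separate observations of a treatment. Taken library by library, the canonical median had a pooled SD of 0.026 on the log2 scale. The number of members below the control mean had a pooled SD of 7.0. Rpl10 and Rpl32 were the members at or above 0 with siRNA 1, and Rpl24 the one with siRNA 2. For the mean of both siRNAs against control, 6 members were called lower (13.0%, against 2.72% of all genes): Rplp0, Rpl13a, Rpl18, Rplp1, Rpl3 and Rpl11. That count was 2 without control replicate 2, 3 without siRNA 1 replicate 2 and 3 without siRNA 1 replicate 4.

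**Figure D1:**
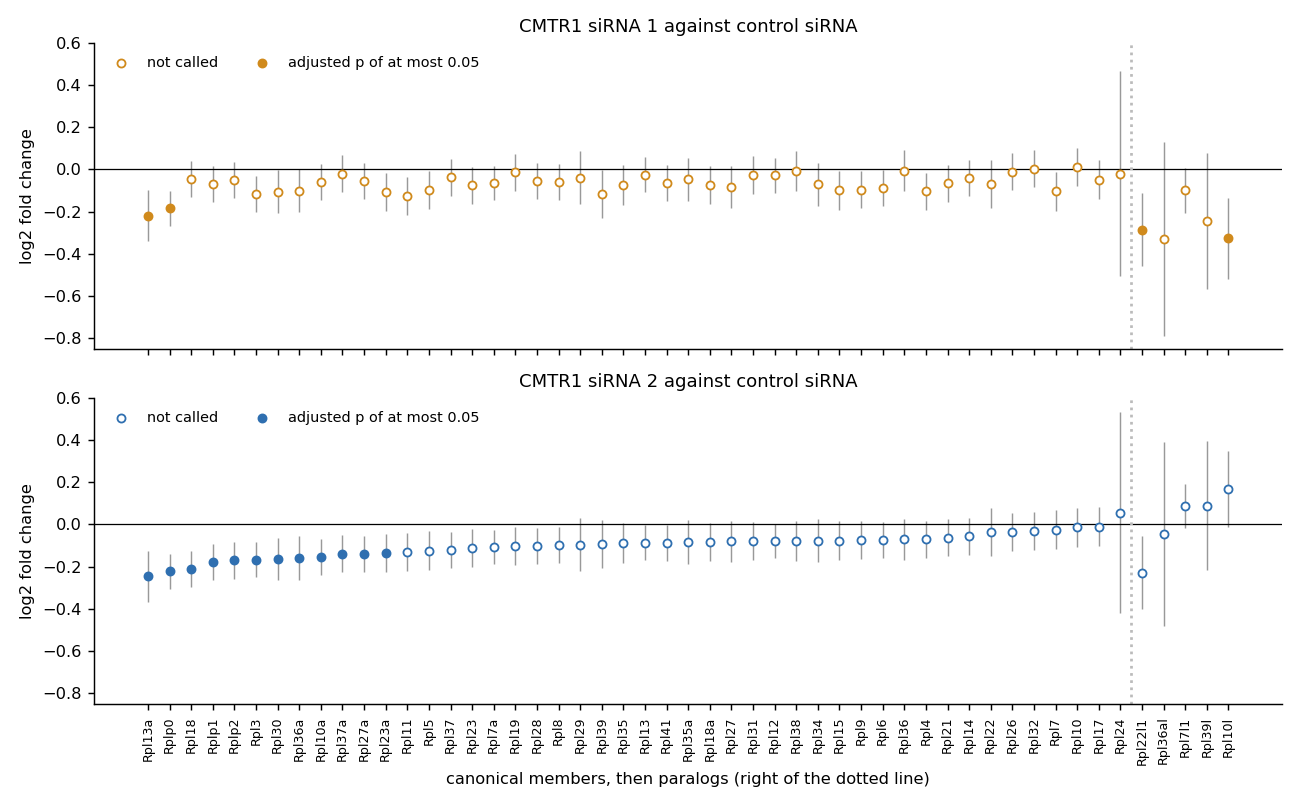
Log2 fold change of each canonical member (left of the dotted line) and each tested paralog (right of it) with CMTR1 siRNA 1 (upper panel) and CMTR1 siRNA 2 (lower panel) against control siRNA, with 95% confidence intervals from edgeR and filled circles for an adjusted p of at most 0.05. Most canonical circles lie just below 0 in both panels, while the paralogs Rpl7l1, Rpl39l and Rpl10l lie below 0 with siRNA 1 and above it with siRNA 2.

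The canonical members together took 1.72, 1.77 and 1.73% of the reads in genes in the control libraries. They took 1.63, 1.64, 1.69 and 1.66% with siRNA 1 and 1.66, 1.64, 1.57 and 1.61% with siRNA 2. Each of the 8 siRNA libraries was below each control library, and the 2 siRNA groups overlapped. Taken member by member, all 4 siRNA 1 libraries lay below all 3 control libraries for 15 of the 46 (6.23% of all genes tested did so), and all 4 siRNA 2 libraries did for 26 (6.99% of all genes). For 13 members all 8 siRNA libraries lay below control (2.26% of all genes): Rpl3, Rpl6, Rpl7a, Rpl11, Rpl13a, Rpl23a, Rpl27, Rpl27a, Rpl35, Rpl37, Rplp0, Rplp1 and Rplp2. No member had all siRNA libraries above control, which 9.28% of all genes had with siRNA 1, 12.4% with siRNA 2 and 3.98% with both together.

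The balance of calls over all genes depended on the scaling. With total reads as library size, siRNA 1 had 435 genes higher and 316 lower (4.67% of all genes in either direction), and siRNA 2 had 991 higher and 571 lower (9.72%). With TMM factors, siRNA 1 had 346 higher and 400 lower, and siRNA 2 had 728 higher and 734 lower. DESeq2 called 199 higher and 322 lower for siRNA 1, and 409 higher and 549 lower for siRNA 2. For the mean of both against control, 673 were higher and 437 lower (6.91%), or 509 and 573 with TMM factors. The canonical members stayed below 0 under both scalings: 46 of 46 were below 0 with siRNA 1 and 45 of 46 with siRNA 2, with medians of −0.085 and −0.11 with TMM factors and −0.088 and −0.12 with DESeq2. DESeq2 called 4 of them lower with siRNA 1 and 21 with siRNA 2.

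Highly expressed genes are measured more precisely, so the canonical members were also set beside the 2291 other genes at 100 CPM or more in control. Of those, 5.06% were called lower with siRNA 1 and 7.42% with siRNA 2, beside 4.35% and 26.1% of the canonical members. With siRNA 1 the share called was thus not above that of these genes. Their medians were −0.0038 and 0.0091, and 51.8% and 45.5% were below 0. All libraries lay below control for 268 of the 2291 with siRNA 1, 240 with siRNA 2 and 105 with both. Small subunit proteins were close to the large subunit: 30 of 30 were below 0 with each siRNA, and their medians were −0.071 and −0.081. With siRNA 2, 8 of them were called lower (26.7%, against 3.55% of all genes). None of the 30 was called with siRNA 1 by edgeR's quasi-likelihood test or exactTest, while 1 was by DESeq2 and 5 had an unadjusted p under 0.05. Proteins of the mitochondrial large subunit had medians of −0.020 and 0.024 over 48 tested genes, and 31 and 21 of them were below 0. For siRNA 1 none was called by the quasi-likelihood test (2 at an unadjusted p under 0.05, 0 by DESeq2 and 1 by exactTest). With siRNA 2, 1 was called lower, Mrpl2 (2.08%, against 3.55% of all genes).

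**Figure D2:**
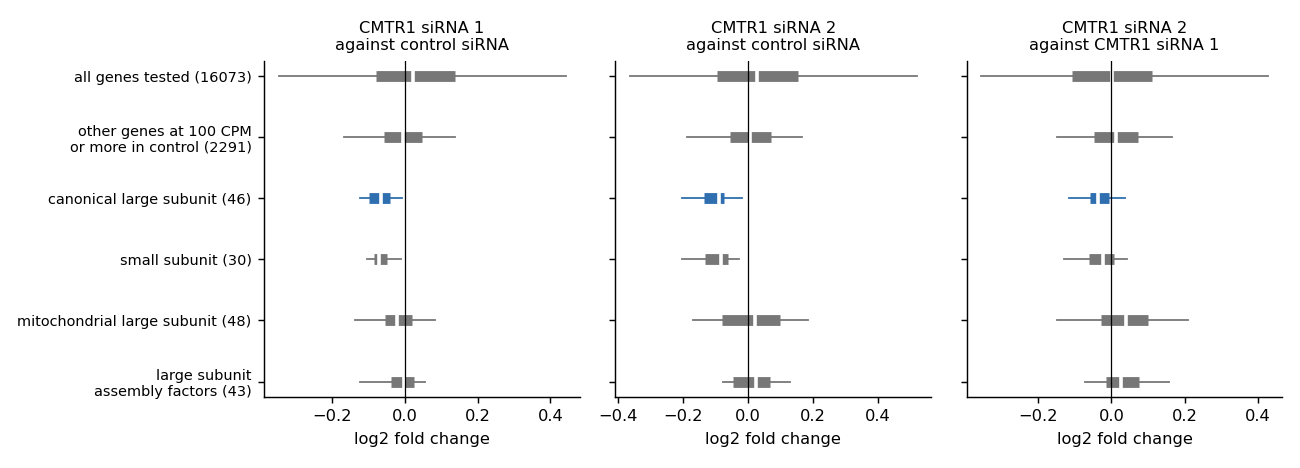
Spread of log2 fold changes over lists of genes for 3 comparisons, with the number of genes tested in parentheses. Thin lines run from the 5th to the 95th percentile, thick bars from the first to the third quartile, and white ticks are medians. The canonical large subunit and the small subunit lie to the left of 0 in both comparisons with control, and the mitochondrial large subunit and the assembly factors lie around it.

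Of the 4 stalk proteins, 1 was called lower with siRNA 1 and 3 with siRNA 2, against 1.97% and 3.55% of all genes. Their median log2 fold changes were −0.061 and −0.17. Rplp0 anchors the stalk to the ribosome and carries the acidic proteins Rplp1 and Rplp2, which contact elongation factors, and Rpl12 sits at the stalk base. Rplp0 was at 708, 731 and 741 CPM in control, at 618, 641, 656 and 642 with siRNA 1 and at 628, 652, 602 and 610 with siRNA 2. All 8 siRNA libraries were below all control libraries. The log2 fold change was −0.18 (SE 0.041, adjusted p = 0.00386) with siRNA 1 and −0.22 (SE 0.041, adjusted p = 0.000268) with siRNA 2, falls of 12.0% and 14.2% in the fit, and the call held in each of the 15 alternatives run for either siRNA.

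Rplp1 was at 499, 508 and 506 CPM in control, at 497, 470, 480 and 474 with siRNA 1 and at 464, 460, 436 and 422 with siRNA 2. The 3 groups did not overlap, with siRNA 2 lowest. It was called with siRNA 2 (−0.18, SE 0.043, adjusted p = 0.00432) and not with siRNA 1 (−0.070, SE 0.043, adjusted p = 0.421). Rplp2 was at 339, 339 and 332 CPM in control, at 329, 327, 327 and 317 with siRNA 1 and at 308, 295, 289 and 304 with siRNA 2. Its groups did not overlap either, and the same siRNA called it (−0.17, SE 0.043, adjusted p = 0.00677; siRNA 1 −0.051, adjusted p = 0.599). A difference between the siRNAs did not pass for Rplp1 (−0.11, adjusted p = 0.0884) or Rplp2 (−0.12, adjusted p = 0.056). Rplp2 passed with DESeq2 (0.0361), with the filter above 5 CPM (0.0433) and with Gm26917, an abundant RNA, left out of library sizes (0.0385). Rpl12 was not called by the quasi-likelihood test, at −0.029 and −0.079, while DESeq2 called all 4 stalk genes lower with siRNA 2.

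Of the 18 proteins shared by all domains of life, which build the core of the subunit, 2 were called lower with siRNA 1 and 6 with siRNA 2. These were 11.1% and 33.3%, against 1.97% and 3.55% of all genes, and the medians were −0.086 and −0.10. The 28 other canonical members had medians of −0.054 and −0.086, with 6 called lower with siRNA 2 (21.4%, against 3.55% of all genes). None of these 28 was called with siRNA 1 by the quasi-likelihood test, and 4 had an unadjusted p under 0.05.

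Among the core proteins, Rpl3 lies close to the catalytic centre. It was at 694, 694 and 681 CPM in control, at 603, 641, 651 and 649 with siRNA 1 and at 603, 595, 627 and 634 with siRNA 2. Every siRNA library was below control and the siRNA groups overlapped. Rpl3 was called with siRNA 2 (−0.17, SE 0.041, adjusted p = 0.0063), while siRNA 1 gave −0.12 (adjusted p = 0.101, and 0.0146 with DESeq2).

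Rpl13a, which besides its place in the ribosome acts in translational silencing as part of the GAIT complex, had the lowest fold changes of the canonical members. It was at 84.8, 81.2 and 76.4 CPM in control, at 67.7, 73.5, 67.2 and 69.0 with siRNA 1 and at 70.3, 70.7, 65.2 and 66.2 with siRNA 2. Both siRNA groups were below control and overlapped each other. The log2 fold change was −0.22 (SE 0.059, adjusted p = 0.0201) with siRNA 1 and −0.25 (SE 0.059, adjusted p = 0.00449) with siRNA 2. The siRNA 1 call was lost without control replicate 1 (adjusted p = 0.127), control replicate 2 (0.0918) or siRNA 1 replicate 1 (0.0561). Rpl13a was counted from 456 to 668 reads per library, and 35.4% of its exon length overlaps other genes on its strand (Gm45713 and Mir5121), whose part in the result was not tested.

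Rpl10a forms the L1 stalk, a mobile arm beside the tRNA exit site. It was at 399, 416 and 411 CPM in control, at 407, 385, 383 and 393 with siRNA 1 and at 364, 374, 374 and 355 with siRNA 2. Only siRNA 2 lay wholly below control, and it was called (−0.16, SE 0.043, adjusted p = 0.0137; siRNA 1 −0.060, adjusted p = 0.511). The siRNAs did not differ past the threshold (−0.095, adjusted p = 0.142). The siRNA 2 call was lost without control replicate 2 (adjusted p = 0.0839) or control replicate 3 (0.0623). Rpl27a was at 335, 334 and 330 CPM in control, at 323, 318, 323 and 319 with siRNA 1 and at 312, 303, 299 and 297 with siRNA 2. Its groups did not overlap, and siRNA 2 gave −0.14 (SE 0.042, adjusted p = 0.0281), a call lost without any 1 of the control libraries (adjusted p = 0.0804, 0.0977 and 0.0729) or without siRNA 2 replicate 4 (0.0607), and also with the replicate block (0.0606) and with no filter (0.06). The difference between the siRNAs was −0.084 (adjusted p = 0.2).

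Rpl18 was the canonical member with the clearest difference between the siRNAs. It was at 473, 473 and 501 CPM in control, at 476, 464, 472 and 458 with siRNA 1 and at 417, 427, 402 and 420 with siRNA 2. The siRNA 2 libraries were below all others, and those of siRNA 1 overlapped control. The log2 fold change was −0.21 (SE 0.042, adjusted p = 0.000604) with siRNA 2 and −0.045 (SE 0.042, adjusted p = 0.651) with siRNA 1, and siRNA 2 differed from siRNA 1 by −0.17 (SE 0.039, adjusted p = 0.00494). That was 1 canonical member called lower between the siRNAs (2.17%, against 2.96% of all genes), and 35 of 46 were lower with siRNA 2 than with siRNA 1 (49.5% of all genes), of which 10 had all siRNA 2 libraries below all those of siRNA 1 (5.21% of all genes). Over all genes, 7.44% were called in either direction between the siRNAs. The Rpl18 call held in each of the 16 alternatives.

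**Figure D3:**
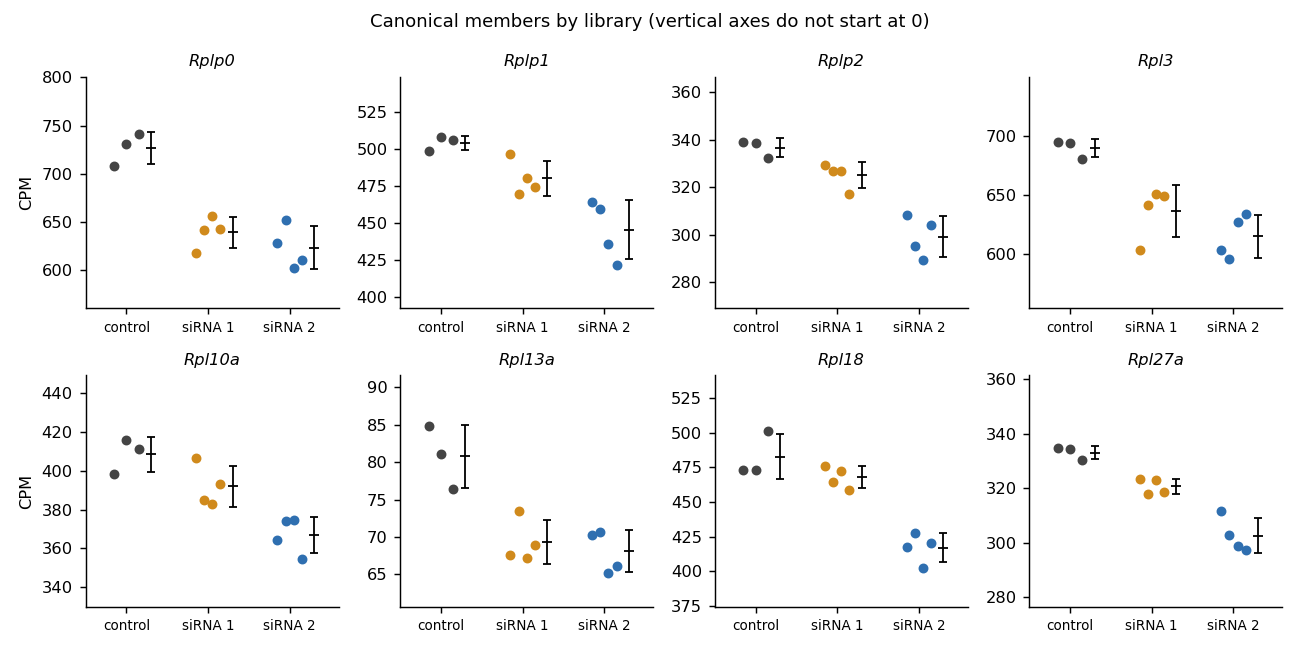
CPM of 8 canonical members in each library, with the mean and SD of each group in black beside the points (3 control, 4 CMTR1 siRNA 1 and 4 CMTR1 siRNA 2 libraries). The vertical axes do not start at 0. All siRNA 2 points are below all control points in the 8 panels, and for Rpl18 the siRNA 1 points overlap control.

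Rpl30 (−0.16, adjusted p = 0.0291), Rpl37a (−0.14, 0.0351), Rpl36a (−0.16, 0.0372) and Rpl23a (−0.13, 0.0459) completed the 12 members called lower with siRNA 2. Rpl23a lies at the rim of the exit tunnel, where the signal recognition particle docks. Each of these lost its call under some alternative, with adjusted p up to 0.211, 0.163, 0.155 and 0.226 when single replicates were left out. Of the 12, 6 were called in every alternative (Rplp0, Rpl18, Rpl13a, Rplp1, Rpl3 and Rplp2), and 6 were not in at least 1. The count of 12 was 7 without control replicate 2.

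The 9 proteins of the exit tunnel and its rim were all below 0 with either siRNA, with medians of −0.069 and −0.079. With siRNA 2, 1 (Rpl23a) was called lower (11.1%, against 3.55% of all genes). None was called with siRNA 1 by the quasi-likelihood test, exactTest or DESeq2, and 3 had an unadjusted p under 0.05.

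Rpl5 and Rpl11 bind 5S rRNA on the way into the subunit, and when free they bind and inhibit Mdm2, the ubiquitin ligase of p53. Rpl5 was at 414, 413 and 396 CPM in control, at 360, 370, 400 and 396 with siRNA 1 and at 389, 360, 362 and 385 with siRNA 2. Only the siRNA 2 group lay wholly below control, and neither siRNA was called (−0.097, adjusted p = 0.256; −0.12, adjusted p = 0.0728). Rpl11 was at 299, 302 and 287 CPM in control, at 259, 275, 281 and 269 with siRNA 1 and at 272, 275, 261 and 272 with siRNA 2. All 8 siRNA libraries were below control, each siRNA alone missed the threshold of the quasi-likelihood test (−0.12, adjusted p = 0.0999; −0.13, adjusted p = 0.0508), and the mean of both passed (−0.13, SE 0.039, adjusted p = 0.0359). With TMM factors siRNA 2 passed for both genes (adjusted p = 0.0347 for Rpl5 and 0.0205 for Rpl11), as it did with DESeq2 (0.0302 and 0.00998). Rpl11 also passed with siRNA 1 by DESeq2 (0.029), and with siRNA 2 by exactTest (0.0471), with the filter above 5 CPM (0.039) and with Gm26917 left out (0.0346).

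Levels of the members were compared with each other per kilobase of their principal mRNA, in control libraries. These are levels of assigned reads, with reads that aligned to more than 1 place left out and PCR duplicates removed. Of the 75-base words of the mRNA, 4.89% occur in other annotated genes for Rpl8, 45.9% for Rplp1 and 77.4% for Rpl7a. For Rpl29 and Rpl13a, at the low end, 56.8% and 56.3% do. The part of this sharing in the ranks was not tested. Canonical mRNAs were 364 to 2045 nt long (median 789.5) with 3 to 10 exons. The highest were Rpl8, which lies at the catalytic centre, at 1021 ± 26.5 CPM per kilobase (SD, n = 3), the stalk protein Rplp1 at 1010 ± 9.84 and Rpl7a at 883 ± 29.04. Rpl8 and Rplp1 did not differ beyond their spread, and Rpl7a was below both in every library.

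Rpl8 was at 845, 889 and 874 CPM in control, at 831, 807, 857 and 838 with siRNA 1 and at 844, 848, 771 and 789 with siRNA 2. Both siRNA groups overlapped control, and neither was called (−0.061, adjusted p = 0.501; −0.097, adjusted p = 0.145). Rpl7a was at 777, 817 and 828 CPM in control, at 774, 768, 774 and 771 with siRNA 1 and at 753, 770, 745 and 730 with siRNA 2. All siRNA libraries were below control, with no call (−0.065, adjusted p = 0.428; −0.11, adjusted p = 0.0829, 0.0357 with TMM factors and 0.00831 with DESeq2).

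The lowest canonical members per kilobase were Rpl29 at 90.8 ± 1.05, Rpl13a at 77.2 ± 4.01 and Rpl24 at 4.70 ± 1.32 (SD, n = 3), and the values of these 3 did not overlap. Divided by the length of all annotated exons in place of the principal mRNA, Rplp1 was first and Rpl8 the next, Rpl7a was 5th, and Rpl13a and Rpl24 remained the lowest, while Rpl29 was 41st of 46. Rpl29 was at 64.6, 65.1 and 63.7 CPM in control, at 60.8, 64.9, 63.3 and 61.6 with siRNA 1 and at 57.1, 65.0, 57.0 and 61.6 with siRNA 2. The groups overlapped (−0.040, adjusted p = 0.809; −0.096, adjusted p = 0.36).

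Rpl24 was measured from only 16 to 38 reads per library, at 3.81, 3.58 and 2.15 CPM in control, at 3.41, 2.62, 3.04 and 3.61 with siRNA 1 and at 2.98, 2.51, 3.10 and 4.69 with siRNA 2. The groups overlapped, and a change of this gene was not detectable at this depth (intervals of −0.51 to 0.46 and −0.42 to 0.53). On its strand, 47.0% of its exon length overlaps Gm28037, and 80.9% of the 75-base words of its mRNA occur in other annotated genes, and reads that aligned to more than 1 place or were ambiguous between genes were not assigned.

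**Figure D4:**
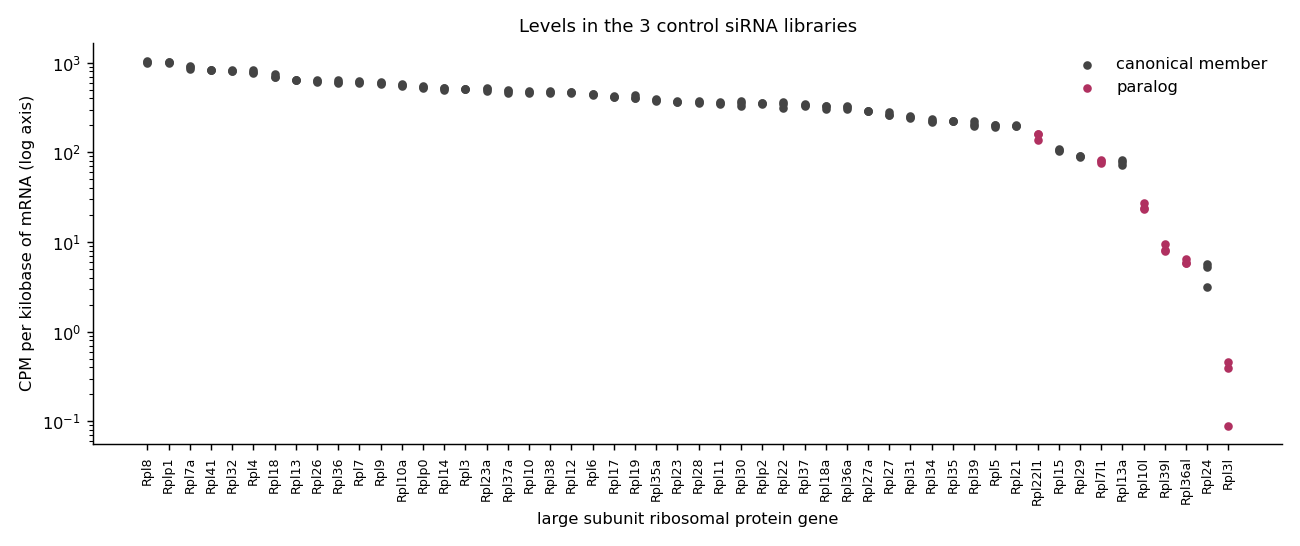
Level of each canonical member (grey) and paralog (red) in the 3 control siRNA libraries, in CPM per kilobase of the principal mRNA on a log axis, ordered by mean. Canonical members run from 1021 (Rpl8) to 4.70 (Rpl24), and the paralogs lie at the lower end, down to Rpl3l.

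Sequence shared with other genes bears on how these counts were made, since reads that align to more than 1 place were not assigned. Of the 46 canonical members, 5 (Rpl22, Rpl32, Rpl39, Rpl4 and Rpl8) had under 10% of their 75-base words in other annotated genes, and their medians against control were −0.069 and −0.071. None of the 5 was called by the quasi-likelihood test, exactTest or DESeq2 in either comparison with control, with 2 and 1 at an unadjusted p under 0.05, and 4 and 5 of them were below 0. The annotation also lists 187 pseudogenes with an Rpl symbol, of which 112 had a read in some library and 15 passed the filter. None of the 15 was called in any comparison by the tools run, and none had an unadjusted p under 0.05. Against control their medians were −0.0061 and 0.016, and 8 and 6 of the 15 were below 0. The 5 members with a pseudogene name had 0 to 9 reads per library and did not pass the filter.

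The canonical members lie on 17 chromosomes, and 20 of them hold a small nucleolar RNA (snoRNA) gene in their span, 39 in all, many snoRNAs being made from the introns of such hosts. Of these 20 hosts, 18 and 20 were below 0 with siRNA 1 and siRNA 2, and the medians were −0.070 and −0.10, beside −0.061 and −0.086 for the 26 others. The 17 members with a pyrimidine run in their window had medians of −0.056 and −0.10, and the 17 without one −0.064 and −0.085. Members with mRNAs at or under the median length had medians of −0.050 and −0.087, and longer ones −0.073 and −0.097. In each of these classes all or nearly all members were below 0, and no test compared the classes. With a trend of fold change on exon length removed over all genes, the canonical medians were −0.077 and −0.11.

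The 6 paralogs were spread more widely than the canonical members, with fewer reads behind most of them, and no test compared the classes. Rpl3l, best known from muscle, had 1 to 7 reads per library and did not pass the filter. The other 5 were all below 0 with siRNA 1 and 2 of them were called lower, Rpl10l and Rpl22l1 (40.0%, against 1.97% of all genes). With siRNA 2 none was called by the quasi-likelihood test, exactTest or DESeq2 (1 at an unadjusted p under 0.05) and 2 were below 0. Between the siRNAs, all 5 were higher with siRNA 2 and 2 were called (4.49% of all genes were called higher), while 2, Rpl10l and Rpl39l, had all siRNA 2 libraries above those of siRNA 1 (6.58% of all genes). Their coding sequences matched the canonical gene over 57.1% (Rpl7l1), 69.3% (Rpl22l1), 84.7% (Rpl10l), 84.97% (Rpl39l) and 87.7% (Rpl36al) of aligned bases.

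Rpl10l is an intronless copy of the X-linked Rpl10 that stands in for it in male germ cells. It was at 27.7, 23.9 and 24.5 CPM in control, at 18.6, 19.2, 21.5 and 21.5 with siRNA 1 and at 31.7, 28.99, 25.3 and 28.0 with siRNA 2. The siRNA 1 libraries were below all others, and those of siRNA 2 overlapped control. The log2 fold change was −0.33 (SE 0.094, adjusted p = 0.0322) with siRNA 1 and 0.17 (SE 0.089, adjusted p = 0.252) with siRNA 2. The difference between the siRNAs was 0.49 (95% interval 0.32 to 0.67, adjusted p = 0.000128), and it passed in all 16 alternatives.

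The siRNA 1 call of Rpl10l was less stable. It was lost without control replicate 1 (adjusted p = 0.19), 2 (0.0567) or 3 (0.063), or without siRNA 1 replicate 1 (0.108) or 2 (0.117). Of the 75-base words of its mRNA, 0.316% occur in other annotated genes.

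Rpl7l1 was at 214, 210 and 197 CPM in control, at 191, 196, 201 and 185 with siRNA 1 and at 241, 221, 197 and 220 with siRNA 2. All 3 groups overlapped. Against control neither siRNA was called (−0.099, adjusted p = 0.334; 0.087, adjusted p = 0.321), but siRNA 2 was above siRNA 1 by 0.19 (SE 0.048, adjusted p = 0.0116). This call was lost without siRNA 2 replicate 1 (0.14, adjusted p = 0.0987), the highest library, or without siRNA 1 replicate 4 (0.16, adjusted p = 0.0568).

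Rpl22l1, the paralog of Rpl22 that rises when Rpl22 is lost in lymphoid cells, was at 88.2, 87.3 and 75.4 CPM in control, at 53.1, 65.4, 81.8 and 73.6 with siRNA 1 and at 75.1, 61.4, 66.9 and 82.5 with siRNA 2. The groups overlapped, and the siRNA 1 libraries spread most. It was called with siRNA 1 (−0.29, SE 0.086, adjusted p = 0.0432), siRNA 2 gave −0.23 (adjusted p = 0.0818), and the mean of both passed (−0.26, adjusted p = 0.0281). The siRNA 1 call was absent with DESeq2 (adjusted p = 0.307) and without control replicate 1 (0.175), control replicate 2 (0.2), siRNA 1 replicate 1 (−0.19, 0.221) or siRNA 1 replicate 2 (0.14). For siRNA 2 a call appeared without siRNA 2 replicate 4 (0.0182), with no filter (0.00931), in a fit of the 2 groups only (0.0319) and with the replicate block (0.0189).

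Rpl39l, which replaces Rpl39 in ribosomes of male germ cells, was at 6.48, 7.65 and 6.33 CPM in control, at 5.79, 6.36, 5.15 and 5.75 with siRNA 1 and at 6.68, 7.75, 7.01 and 7.53 with siRNA 2. Its siRNA 2 libraries were above all those of siRNA 1, and no comparison passed (between the siRNAs 0.33, adjusted p = 0.17). Rpl36al, the paralog of the X-linked Rpl36a, was at 3.43, 3.08 and 3.10 CPM in control, at 2.23, 2.99, 2.64 and 2.27 with siRNA 1 and at 2.56, 3.10, 3.24 and 3.46 with siRNA 2. Its siRNA 1 libraries were below control, but with 15 to 28 reads per library no difference was detectable (−0.33, SE 0.23, adjusted p = 0.509 with siRNA 1). Of its exon length, 24.5% overlaps Gm49383 on the same strand.

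**Figure D5:**
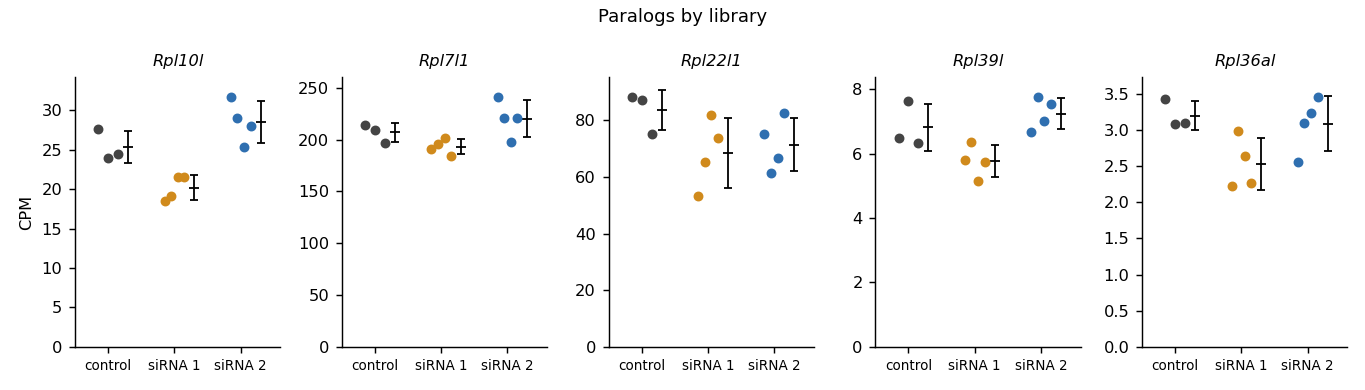
CPM of the 5 tested paralogs in each library, with the mean and SD of each group in black (3 control, 4 CMTR1 siRNA 1 and 4 CMTR1 siRNA 2 libraries). For Rpl10l the 4 siRNA 1 points, from 18.6 to 21.5, are below all points of the other groups.

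Reads of a paralog were also expressed as a percentage of those of its canonical partner, a measure that does not depend on library size. It was not corrected for mRNA length or for unassigned reads, so it compares libraries and not the levels of the paired genes. Of the 75-base words of the Rpl10 mRNA, 91.9% occur in other annotated genes, beside 0.316% for Rpl10l. The Rpl7l1 mRNA is 2606 nt long and that of Rpl7 1163 nt. Rpl10l came to 6.76% ± 0.59 of Rpl10 in control (SD, n = 3), 5.33% ± 0.16 with siRNA 1 and 7.67% ± 0.76 with siRNA 2 (both SD, n = 4). The siRNA 1 libraries were below all others. The log2 ratio differed between the siRNAs by 0.52 (SE 0.075, two-sided exact permutation p = 0.0286, the smallest that 4 against 4 libraries allow), and by −0.34 between siRNA 1 and control (exact p = 0.0571, the smallest for 4 against 3). Adjusted over the 15 ratio tests, both exact permutation p-values were 0.214, and no ratio test passed.

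For the other pairs the percentages in control, siRNA 1 and siRNA 2 were 51.6 ± 1.64, 44.3 ± 7.93 and 45.4 ± 6.23 for Rpl22l1 to Rpl22 and 29.4 ± 0.96, 29.5 ± 1.91 and 31.7 ± 1.17 for Rpl7l1 to Rpl7. They were 5.37 ± 0.68, 4.92 ± 0.49 and 6.09 ± 0.66 for Rpl39l to Rpl39, and 2.09 ± 0.080, 1.77 ± 0.19 and 2.26 ± 0.32 for Rpl36al to Rpl36a (SD, n = 3, 4 and 4). Among these, every siRNA 2 library was above every control library for Rpl7l1 to Rpl7 (difference 0.11, exact permutation p = 0.0571), and the other pairs overlapped in each comparison with control.

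Genes that assemble the large subunit had medians near 0. Of 43 assembly factors, none was called against control with either siRNA by the quasi-likelihood test, exactTest or DESeq2, each time with 4 at an unadjusted p under 0.05, and their medians were −0.0021 and 0.026. The lowest values were those of Npm1 (−0.13 with siRNA 1), a nucleolar chaperone, and Nle1 (−0.14 with siRNA 2), which helps to mature the subunit. Between the siRNAs, Rsl1d1 (0.20, adjusted p = 0.00762) and Nip7 (0.19, adjusted p = 0.018) were called higher with siRNA 2. They were 4.65% of the 43, close to the 4.49% of all genes called higher.

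Of 6 chaperones and importers of large subunit proteins, Nap1l1, a histone chaperone of broad use, was called lower with both siRNAs (−0.18, adjusted p = 0.0184, and −0.25, adjusted p = 0.000357). That was 16.7% of the list each time, against 1.97% and 3.55% of all genes, and the medians were −0.065 and −0.019. Among 17 regulators of TOP mRNAs, Pabpc1, the poly(A)-binding protein and itself a TOP mRNA, was called lower with siRNA 2 (−0.15, adjusted p = 0.0085), as was Larp4 (−0.14, adjusted p = 0.0453), which binds poly(A) tails. Tsc2, which restrains mTOR, was called higher with siRNA 1 (0.17, adjusted p = 0.0225), though not by DESeq2. Cnbp, which binds TOP mRNAs, was called higher with siRNA 2 than with siRNA 1 (0.17, adjusted p = 0.0261), again not by DESeq2. The medians against control of the list were −0.0097 and −0.024. Of the 17, 5.88% were called higher with siRNA 1 (2.71% of all genes) and 11.8% lower with siRNA 2 (3.55% of all genes). Between the siRNAs, 5.88% were called higher, beside 4.49% of all genes.

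Free Rpl5 and Rpl11 act on the p53 axis, of which 4 genes were listed. Cdkn1a, a p53 target that halts the cell cycle, was called higher with both siRNAs (0.50, adjusted p = 1.59e-05; 0.41, adjusted p = 0.00019). Mdm2 was called higher with siRNA 2 (0.18, adjusted p = 0.0189). Thus 1 of the 4 was called higher with siRNA 1 and 2 with siRNA 2, against 2.71% and 6.17% of all genes. DESeq2 called 1 gene of this list with siRNA 2 in place of 2. Trp53 was at 0.0072 and −0.033 and was not called, nor was Mdm4. Free Rpl5 and Rpl11 proteins were not measured, and their part in these values was not tested.

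Some markers of cell types moved with the same contrasts. Of the 8 ESC markers, 6 were called lower with siRNA 1 and 4 with siRNA 2, against 1.97% and 3.55% of all genes. Among them were Nanog (−0.57 and −0.54), Klf4 (−0.40 and −0.61), Esrrb (−0.34 and −0.55) and Zfp42 (−0.32 and −0.31). All 8 were below 0 with each siRNA, but the smallest shifts were slight (Sox2 −0.041 with siRNA 1, Tdgf1 −0.013 with siRNA 2). Of 4 neural markers, Nes was called higher with both (0.26 and 0.45), where 2.71% and 6.17% of all genes were. Pax6 was at 0.38 with siRNA 1, with its 4 libraries above control, and at −0.30 with siRNA 2, with its 4 libraries below control. It was called against control with neither, and was called lower with siRNA 2 than with siRNA 1 (−0.68, adjusted p = 0.000312). The median of the neural list was 0.26 with siRNA 1 and 0.020 with siRNA 2, and the summed level of the 4 ran from 151 to 152 CPM in control, 163 to 185 with siRNA 1 and 160 to 191 with siRNA 2. Of 5 fibroblast markers, none at 0 in any group, Col1a1 (0.75) and Dcn (1.13) were called higher with siRNA 2 (40.0%, against 6.17% of all genes). The summed level of the 5 ran from 24.5 to 31.0 CPM in control, 28.1 to 32.0 with siRNA 1 and 36.8 to 42.6 with siRNA 2. The 6 endoderm and mesoderm markers summed to 15.7 to 23.0, 14 to 21.1 and 14.2 to 18.1 CPM, with none called among the 4 tested. The part of these markers in the ribosomal protein values was not tested.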

How the data were processed

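RNA was depleted of rRNA and made into directional libraries. Per the labels and methods, the authors trimmed reads with Cutadapt, aligned them to GRCm38 with STAR, removed PCR duplicates with Picard, so that short, abundant mRNAs can reach only a limited count, and counted reads with featureCounts. The deposited values are raw counts per gene. In 10 of the 11 files, closing lines have the layout of htseq-count, so the counter is not settled, and list 787556 to 974693 reads aligned to more than 1 place. Strand settings of the counting are not given in the sources used here.

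Symbols came from GENCODE M21 (54809 of 54838 identifiers matched) and start windows from RefSeq. All 11 libraries were fitted together with edgeR 4.0.16 (R 4.3.3; quasi-likelihood test, library sizes as total counts, Benjamini-Hochberg over 16073 genes). The SE is the log2 fold change over the square root of F. Alternatives were TMM, DESeq2 1.42.0, exactTest, 2 filters, fits of 2 groups, a replicate block, a length trend, Gm26917 left out of library sizes, and each replicate left out. Members and gene lists were chosen with earlier results of these data known. Those named with values are the canonical members called with siRNA 1, the 8 with the lowest adjusted p with siRNA 2, tested paralogs, the 3 highest and lowest per kilobase, the stalk, Rpl5, Rpl11 and Rpl10a, with called genes and extremes of lists. The comparison with genes at 100 CPM or more was chosen after seeing the data. The quasi-likelihood fit was tested on simulated counts with known changes of log2 1 and 0.5, in as many genes at each size. It called 87 of the genes changed by 1 and 35 of those changed by 0.5, and 9 of its 131 calls were false. These changes were larger than those of the canonical members, so recovery of shifts of that size was not tested. A gene planned besides these is not reported here.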

Additional observations from a re-analysis of the deposited data

Results flagged for a closer look

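For 3 members the difference between the siRNAs passed edgeR's quasi-likelihood test, so that the effects of the siRNAs against the shared control differed. They were 5.88% of the 51 canonical members and paralogs tested, beside 7.44% of all genes. Rpl18 was lower with siRNA 2 than with siRNA 1 by a log2 difference of −0.17, Rpl10l was higher by 0.49 and Rpl7l1 was higher by 0.19. Among the 19 members given by library, no library stood apart from the others of its siRNA group in any of the 38 groups of 4 tested.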

How the results depend on the processing

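The canonical medians stayed below 0 against control in every alternative. The count called moved by more than 1.5 times with DESeq2 (4 with siRNA 1, 21 with siRNA 2, 14 for the mean of both and 2 between the siRNAs), with TMM factors (13 for the mean of both), with the stricter filter (3 between the siRNAs), with Gm26917 left out (3 between the siRNAs) and with paralogs included (4 with siRNA 1 and 3 between the siRNAs, 2 of them higher). The replicate block gave 3 for the mean of both, 8 with siRNA 2 and 2 with siRNA 1; deviations of same-numbered libraries correlated by −0.0645 to 0.0696, so the numbers were not taken to pair them. The siRNA 2 median was −0.12 with DESeq2, and the median between the siRNAs was 0.024 over members with under 10% shared words, by construction over fewer genes. The cause of the other shifts was not tested. Leaving out single replicates gave 1 to 2 called with siRNA 1, 7 to 9 with siRNA 2, 2 to 9 for the mean of both and 1 to 1 between the siRNAs. In the same way, log2 fold changes near 0 changed sign between the siRNAs for Rpl11 (−0.026 to 0.012), Rpl13a (−0.047 to 0.0036), Rpl22l1 (−0.042 to 0.15) and Rpl24 (−0.15 to 0.20). Against control they did so for Rpl24 (−0.23 to 0.12 with siRNA 1 and −0.17 to 0.20 with siRNA 2, and −0.088 with the replicate block) and for Rpl36al with siRNA 2 (−0.11 to 0.027), and none of these was called. The log2 ratio of Rpl22l1 to Rpl22 between the siRNAs ran from −0.075 to 0.13 and that of Rpl7l1 to Rpl7 with siRNA 1 from −0.027 to 0.047. That of Rpl10l to Rpl10 between the siRNAs ran from 0.47 to 0.58, where 3 against 4 libraries cannot reach an exact permutation p under 0.0571. Genes with few reads, such as Rpl24 and Rpl36al, are limited by depth.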
